A study of Mus musculus with 18 samples.

Results

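Interferon-stimulated genes are genes whose transcription rises when a cell senses interferon. A list of 37 of them was followed here in the livers of mice given monocrotaline, a pyrrolizidine alkaloid of Crotalaria plants. Liver enzymes turn it into a pyrrole that reacts with protein and DNA, and the endothelium of the sinusoids is a known target of this injury. The members were chosen by symbol, and 35 of the 37 had a named probe on the mRNA arrays, on 46 probes in all, out of 24817 genes tested; all 35 passed the filter on dim probes. The 2 dynamin-like GTPases Mx1 and Mx2 had no probe that could be named and were not analysed here. The animals were male C57BL/6 mice, 6 weeks old, with no genetic modification named in the labels. After a fast of 12 h they received saline (control) or monocrotaline into the stomach at 270 mg/kg (MCT 270) or 330 mg/kg (MCT 330), with 8 mice in each group, and the liver was collected 48 h after dosing. The labels give 3 mRNA arrays for each of the 3 groups.

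The 9 arrays did not behave as 9 separate livers. Within the control group, the MCT 270 group and the MCT 330 group, replicates 2 and 3 differed by less than repeated spots of a probe on a single array, and so did MCT 330 replicate 1 from the other MCT 330 arrays, with a ratio to the spot noise of 0.458 to 0.958. Control replicate 1 and MCT 270 replicate 1 stood apart from the other arrays of their groups, at ratios of 2.69 to 3.66. Arrays under a ratio of 1 were averaged and counted as 1 sample, which gave 2 samples for control, 2 for MCT 270 and 1 for MCT 330. For MCT 330 replicate 1 this join is the least certain. The p-values therefore measure the spread between these samples, which the lone MCT 330 sample is assumed to share. Precision is limited by the small number of arrays. The MCT 330 arrays were scanned in runs of their own, so that scan run and the higher dose cannot be told apart. The liver label was checked against 5 hepatocyte markers, albumin among them, all of which passed the filter on dim probes, with a summed level of 1171 to 1292 in the control samples and 942 at MCT 330 in units of each array's 75th percentile.

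Interferons are secreted when pattern recognition receptors sense foreign or misplaced nucleic acid. Type I and type III interferons signal through Jak kinases to a complex that holds Stat2 and Irf9 and binds interferon-stimulated response elements, whereas interferon-gamma acts on gamma-activated sites. The induced genes encode sensors, transcription factors that amplify the response, and effectors that degrade, block or tag foreign RNA and protein. In liver, hepatocytes, Kupffer cells, endothelium and recruited leukocytes all respond, and a low level of the programme is present without infection.

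The promoters of the members show which of them carry the letters of these elements near the start. RefSeq's promoter table on GRCm38.p6 (250 bases before to 50 after each annotated start) held 29 of the 37 members; Zbp1, Oas2, Mx1, Mx2, Usp18, Dhx58, Rtp4 and Parp14 were not matched. The core of the response element, searched on both strands as GAAA, any 2 bases and GAAA again, was found in 16 of the 29 members (55.2%) and in 3.99% of the 27025 genes of the table. The gamma-activated site, searched as TTCNNNGAA, which reads the same on both strands, was found in 9 of the 29 (31%) and in 9.55% of all genes. The motifs overlapped each other only in Bst2. A match is a run of letters, not a measured binding site. The 160 bases before the start are printed, 5′ to 3′ in the direction of the gene, for 3 members that were called higher at MCT 330 (Isg15, Gbp2 and Igtp) and for 3 that carry the response element core and differed by more than 1 log2 unit between the control samples (Ifit1, Ifit3 and Rsad2), with motif matches in capitals. The windows lie at chr4:156200819-156200978 on the minus strand for Isg15, chr3:142620503-142620662 on the plus strand for Gbp2, chr11:58199396-58199555 on the plus strand for Igtp, chr19:34640729-34640888 on the plus strand for Ifit1, chr19:34583369-34583528 on the plus strand for Ifit3 and chr12:26456453-26456612 on the minus strand for Rsad2.
Isg15: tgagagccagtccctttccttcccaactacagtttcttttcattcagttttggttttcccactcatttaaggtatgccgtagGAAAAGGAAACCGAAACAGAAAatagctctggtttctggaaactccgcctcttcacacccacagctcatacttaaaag
Gbp2: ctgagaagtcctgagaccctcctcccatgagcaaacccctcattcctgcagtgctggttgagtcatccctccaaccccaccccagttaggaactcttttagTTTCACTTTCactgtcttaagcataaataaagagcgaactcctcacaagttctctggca
Igtp: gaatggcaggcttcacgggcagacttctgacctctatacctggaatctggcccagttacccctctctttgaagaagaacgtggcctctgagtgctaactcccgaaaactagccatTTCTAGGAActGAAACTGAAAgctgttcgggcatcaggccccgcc
Ifit1: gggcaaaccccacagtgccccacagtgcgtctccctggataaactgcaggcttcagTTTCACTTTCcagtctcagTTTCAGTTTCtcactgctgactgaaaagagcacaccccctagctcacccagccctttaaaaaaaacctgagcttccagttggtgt
Ifit3: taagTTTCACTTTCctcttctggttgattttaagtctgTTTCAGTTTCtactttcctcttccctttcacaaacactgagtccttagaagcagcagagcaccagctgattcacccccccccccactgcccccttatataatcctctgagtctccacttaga
Rsad2: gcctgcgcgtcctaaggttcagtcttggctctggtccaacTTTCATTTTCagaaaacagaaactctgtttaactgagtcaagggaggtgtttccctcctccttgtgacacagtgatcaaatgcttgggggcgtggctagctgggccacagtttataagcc

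Isg15 carried 3 overlapping copies of the core, from base -78 to -57, on the strand of the gene. Ifit1 and Ifit3 carried 2 separate copies each on the opposite strand, where they read as TTTC. Gbp2 had 1 copy at -59 to -50, and Igtp had 1 at -34 to -25 with a gamma-activated site just before it. Rsad2 had 1 copy at -120 to -111. The window of Irf7, among the members with large differences at MCT 330, held neither motif.

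**Figure D1:**
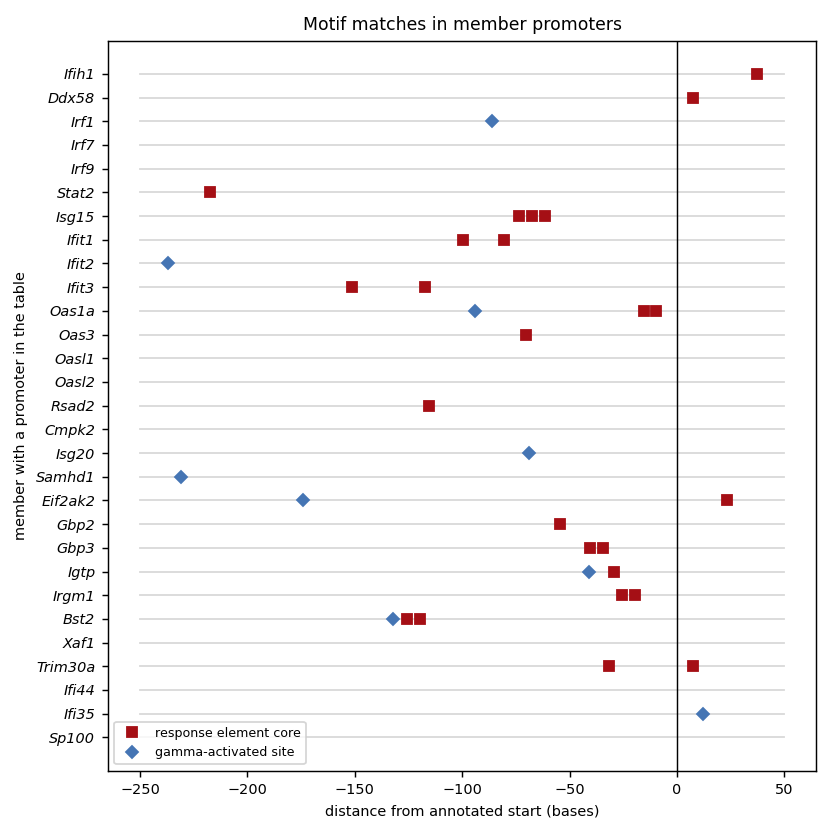
Positions of the 2 motifs in the promoters of the 29 members found in the RefSeq table; the x axis is the distance from the annotated start in bases, grey lines span the searched window, and the several starts of a gene are drawn on 1 row. Red squares are the response element core and blue diamonds the gamma-activated site; most matches lie before the start, and 16 members have a red square.

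At the higher dose part of the interferon-stimulated genes stood above control. Of the 35 members, 9 were called higher at MCT 330 (25.7%) and 0 lower by limma at a Benjamini-Hochberg adjusted p under 0.05, where 9.47% of all genes tested were called higher 23.8% lower and 33.2% in either direction. The MCT 330 sample lay above both control samples in 26 members (74.3%; 32.2% of all genes), below both in 3 (54.4% of all genes) and between them in 6. The median log2 difference of the members was 0.69, against -0.25 over all genes. The scaling moved that reference: all genes had 2351 calls higher and 5896 lower here, but 4104 and 3370 with median scaling, 3088 and 4270 with quantile normalization, and 3709 and 3904 with normexp and quantile normalization, with all-gene medians of 0.13, -0.05 and -0.02. Relative to all genes the members' median was 0.94 here and 0.95, 0.79 and 0.66 in those settings. The 9 were Zbp1, Irf7, Isg15, Usp18, Isg20, Eif2ak2, Gbp2, Igtp and Ifi35. The count moved with the samples that entered the fit: 2 members were called without MCT 270 replicate 1, 3 without MCT 270 replicates 2 and 3 together, and 15 without control replicate 1. Zbp1 and Gbp2 were called under each of the 22 alternatives run for this comparison, Igtp under 17 and Isg20 under 16; Igtp and Isg20 were lost without control replicate 1, and Isg20 also without control replicate 2.

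At the lower dose no member was called by limma, and neither was any gene (0% of 24817). At an unadjusted p under 0.05 there were 10 members higher (28.6%) and 1 lower, against 9.8% and 8.78% of all genes. These 11 in either direction became 4 without MCT 270 replicate 1, 6 without MCT 270 replicates 2 and 3, 7 without control replicates 2 and 3, and 19 without control replicate 1. Both MCT 270 samples lay above both control samples in 15 members (42.9%; 25.4% of all genes), below both in 1 (27.4% of all genes), and overlapped them in 19. The members' median log2 difference was 0.24, against -0.02 over all genes. Within the scan run that held replicates 1 and 2 of both groups the members' median was 0.24, against -0.02 over all genes. Between the replicate 3 arrays of the next run it was 0.60, against -0.02. Replicates 2 and 3 of each group were counted as 1 sample, so the next run is not a separate comparison. Between the doses, 1 member was called higher at MCT 330 than at MCT 270, Isg20, with 5% of all genes called higher, 16.8% lower and 21.8% in either direction. The MCT 330 sample lay above both MCT 270 samples in 25 members (71.4%; 31.2% of all genes) and below both in 4 (55.9% of all genes); the median was 0.40 for the members and -0.23 for all genes. In 11 members (31.4%; 10% of all genes) the samples lay in the order control, MCT 270, MCT 330 with no overlap. The comparisons share samples: both doses are set against the same 2 controls.

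**Figure D2:**
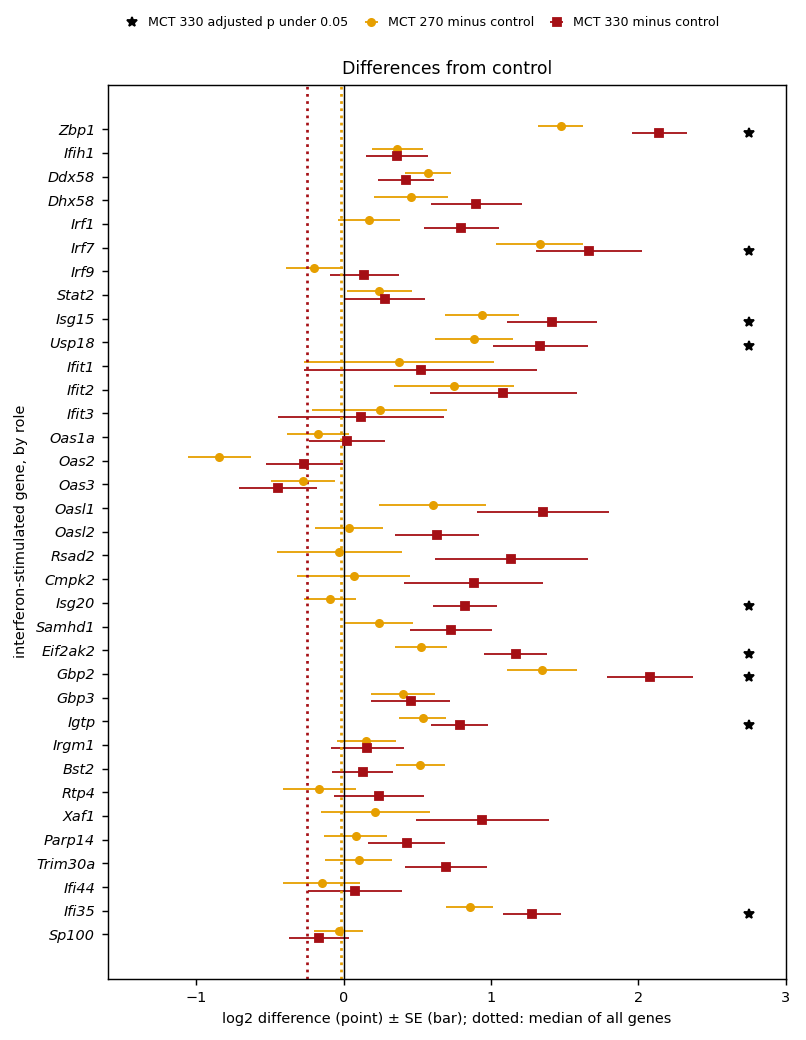
Log2 difference from control of the 35 measured members, grouped by role; orange circles are MCT 270 and red squares MCT 330, bars are the standard error of the limma fit, dotted lines are the medians of all genes (-0.02 and -0.25), and stars mark the 9 members called at MCT 330. The points of Zbp1, Irf7 and Gbp2 lie furthest to the right at both doses, and Oas2 and Oas3 lie to the left of 0.

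A second pattern lay within the control group. Control replicate 1 stood above the sample of control replicates 2 and 3 in 33 of 35 members, where 51.3% of all genes did, by a median of 0.45 log2 units against 0.01 over all genes. The gap exceeded 1 log2 unit in 6 members (17.1%; 3.56% of all genes): Ifit1, Ifit2, Ifit3, Rsad2, Cmpk2 and Oasl1. The corresponding gap within the MCT 270 group had a median of -0.07, against 0.01 over all genes. There replicate 1 was the higher in 14 of 35 members and in 52.4% of all genes. Against control replicate 1 alone the members' median difference was 0.37 at MCT 330 and 0.05 at MCT 270; against control replicates 2 and 3 it was 0.90 and 0.55. In 13 members the gap between the control samples was larger than the difference between MCT 330 and control in either direction. The share of all genes for that count was not computed. Over the marker lists, the median gap in the same direction was 0.36 for conventional dendritic cells, 0.33 for Kupffer cells, 0.24 for monocytes and recruited macrophages, -0.45 for neutrophils and -0.11 for hepatocytes, and lay from -0.08 to 0.10 for the other 6 lists; their part in the members' gap was not tested.

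**Figure D3:**
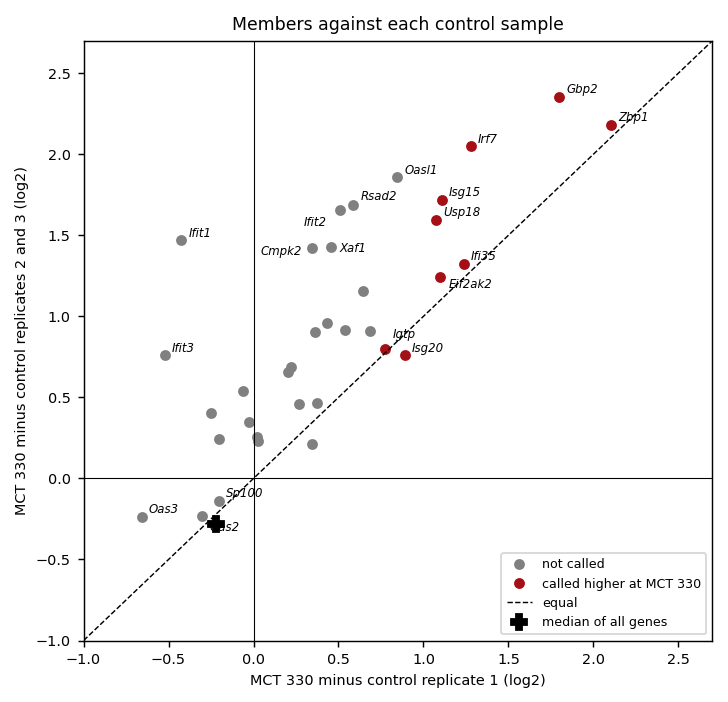
Each member's log2 difference of MCT 330 from control replicate 1 (x axis) and from control replicates 2 and 3 (y axis), with the dashed line marking equal differences; red points were called higher at MCT 330, grey points were not, and the black cross is the median of all genes. Most points lie above the line, Ifit1 and Ifit3 lie left of 0 on the x axis and above 0 on the y axis, and Zbp1, Ifi35, Igtp and Isg20 lie close to the line.

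Among the sensors, Zbp1, which binds left-handed nucleic acid and can start necroptosis, had the largest difference of all members. Its log2 level relative to each array's 75th percentile, the scale used for every level below, was -0.93 in control replicate 1 and -1.01 in controls 2 and 3, 0.48 and 0.54 in the MCT 270 samples, and 1.17 at MCT 330. The 3 groups did not overlap, and the control samples were close to each other. The difference was 2.14 ± 0.19 (SE, limma adjusted p = 0.0091) at MCT 330, a 4.41-fold higher level, and 1.47 ± 0.15 (adjusted p = 0.081) at MCT 270. A second, dimmer Zbp1 probe gave 2.20 and 1.28. On the brighter probes the cytosolic RNA helicases had smaller differences: Ddx58 (RIG-I) was 0.42 and Ifih1 (MDA5) 0.36 above control at MCT 330, and both were at least as high at MCT 270 (0.57 and 0.36), with MCT 330 below both MCT 270 samples for Ddx58. Their dimmer probes gave other sizes, 0.02 at MCT 330 and 0.64 at MCT 270 for Ddx58, and 1.14 and 1.21 for Ifih1. Dhx58 (LGP2), which modulates those helicases, was at 0.56 and 0.05 in the controls, 0.57 and 0.94 at MCT 270 and 1.20 at MCT 330. Its MCT 330 sample was the highest, but the difference of 0.90 ± 0.31 missed the threshold (adjusted p = 0.084).

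Irf7, the factor that amplifies the type I response, was the transcription factor with the largest difference. Its levels were -1.88 and -2.65 in the controls, -0.99 and -0.88 at MCT 270 and -0.60 at MCT 330. Every treated sample lay above both controls, which were themselves 0.77 apart. The difference was 1.66 ± 0.36 at MCT 330 (adjusted p = 0.029) and 1.33 ± 0.29 at MCT 270 (adjusted p = 0.14). Stat2 and Irf9, which bind response elements together, moved little: Stat2 differed by 0.28 and Irf9 by 0.14 at MCT 330, and neither was called. Irf1, a factor induced strongly by interferon-gamma, had probes that disagreed: the brighter, the value used here, was 0.80 above control at MCT 330 (adjusted p = 0.071) and the dimmer, assigned to another transcript record, differed from it by -1.59. Of the 11 members with several probes, Irf1 was the only member whose probes differed in sign at MCT 330; Irf1, Isg20 and Oas1a did at MCT 270.

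The ubiquitin-like modifier Isg15 and Usp18, the protease that removes it from proteins and also restrains the interferon receptor, were both called. Isg15 stood at 0.73 and 0.12 in the controls, 1.33 and 1.40 at MCT 270 and 1.84 at MCT 330. Usp18 stood at 0.55 and 0.03 in the controls, 1.39 and 0.96 at MCT 270 and 1.63 at MCT 330. For both genes the 3 groups were ordered by dose without overlap. The MCT 330 differences were 1.41 ± 0.31 for Isg15 (adjusted p = 0.029) and 1.34 ± 0.33 for Usp18 (adjusted p = 0.037), or 2.66-fold and 2.52-fold.

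The Ifit genes, whose products bind foreign RNA ends and block translation, were the members in which the control samples disagreed most. Ifit1 stood at -0.17 in control replicate 1 and at -2.06 in controls 2 and 3, a gap of 1.89, at -0.56 and -0.92 at MCT 270 and at -0.59 at MCT 330. The treated samples lay between the controls. Ifit3 followed the same layout, at 1.70 and 0.41 in the controls, 1.48 and 1.11 at MCT 270 and 1.17 at MCT 330. Ifit2, next to Ifit3 on the chromosome, stood at -2.98 and -4.13 in the controls, -2.72 and -2.89 at MCT 270 and -2.47 at MCT 330, so that here every treated sample lay above both controls. The differences at MCT 330 were 0.52 ± 0.79 for Ifit1, 1.08 ± 0.50 for Ifit2 and 0.12 ± 0.56 for Ifit3, and 0 of the 3 were called. Ifit1 and Ifit3, shown for their controls, were singled out after their values were seen, as was Cmpk2.

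The oligoadenylate synthetases, which activate the RNA-degrading RNase L, and their Oasl relatives split by gene. The 3 Oas genes did not stand above control on the probes used: Oas1a was at 0.82 and 0.37 in the controls, 0.39 and 0.44 at MCT 270 and 0.61 at MCT 330, although its dimmer probe differed by 0.83 at MCT 330. Oas2 was at -0.70 and -0.77 in the controls, -1.81 and -1.35 at MCT 270 and -1.001 at MCT 330, below both controls in every treated sample, with a difference of -0.84 ± 0.21 at MCT 270 (adjusted p = 0.16). Oas3, its neighbour, was at -3.27 and -3.69 in the controls, -3.87 and -3.64 at MCT 270 and -3.93 at MCT 330. The 2 Oasl genes, which carry ubiquitin-like domains and are also neighbours, were higher at MCT 330 than in every other sample. Oasl1 stood at 1.01 and 0.00 in the controls, 1.04 and 1.18 at MCT 270 and 1.86 at MCT 330, a difference of 1.35 ± 0.45 (adjusted p = 0.076). Oasl2 differed by 0.63 ± 0.28 (adjusted p = 0.15). With median scaling Oas2 lay above control at MCT 330 (0.11), and with normexp background correction and quantile normalization Oas3 did (0.02).

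**Figure D4:**
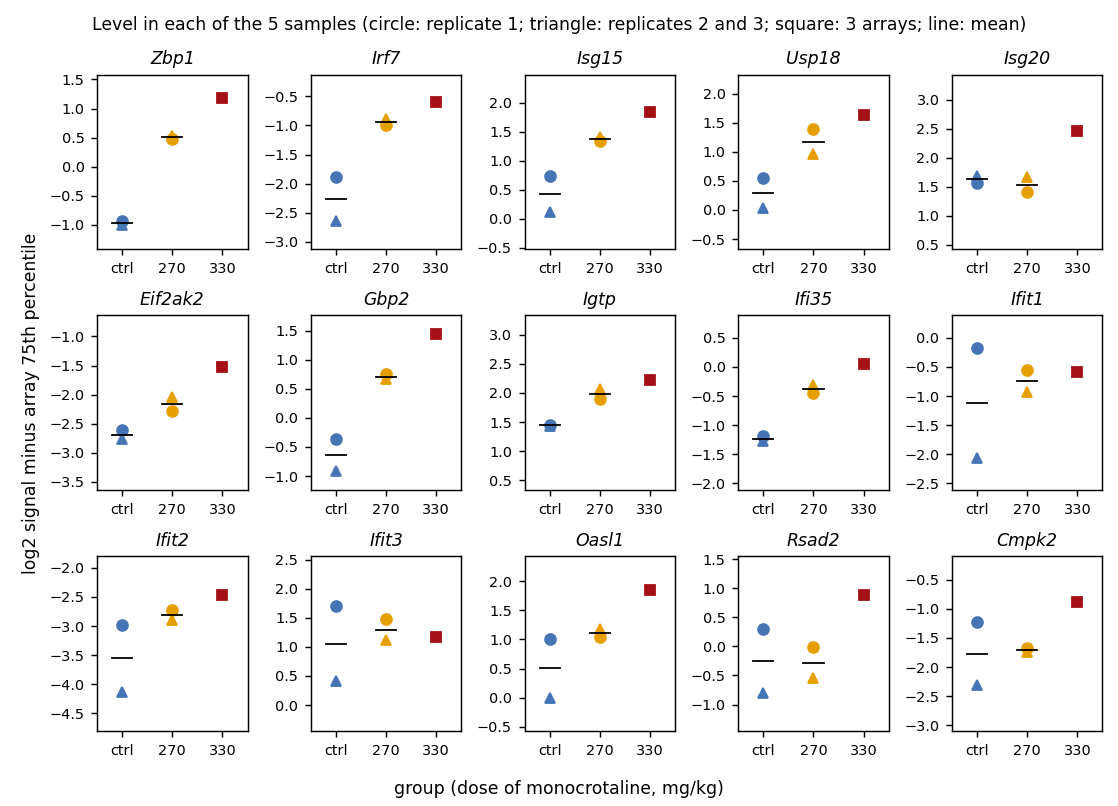
Log2 level, relative to each array's 75th percentile, of 15 members in the 5 samples: the 9 called at MCT 330, from Zbp1 to Ifi35, and the 6 whose control samples differed by more than 1 log2 unit, from Ifit1 to Cmpk2. Blue is control, orange MCT 270 and red MCT 330; every panel spans 3 log2 units, and in the last 6 panels the blue points lie far apart.

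Among the enzymes that act on nucleotides and RNA, Eif2ak2 and Isg20 were called. Eif2ak2 (PKR), the kinase that stops translation on double-stranded RNA, stood at -2.62 and -2.76 in the controls, -2.28 and -2.04 at MCT 270 and -1.52 at MCT 330. The groups did not overlap, and the difference at MCT 330 was 1.17 ± 0.21 (adjusted p = 0.020). Isg20, an RNA exonuclease, stood at 1.56 and 1.69 in the controls, 1.41 and 1.67 at MCT 270 and 2.45 at MCT 330. On this probe the control and MCT 270 samples overlapped and only MCT 330 was above them, by 0.82 ± 0.22 over control (adjusted p = 0.045) and by 0.92 ± 0.22 over MCT 270 (adjusted p = 0.047); the call between the doses was lost without control replicate 2, MCT 270 replicate 1 or MCT 270 replicate 3. Its dimmer probe stood at -1.91 and -1.76 in the controls, -1.56 and -1.49 at MCT 270 and -0.03 at MCT 330, with both MCT 270 samples above the controls and a difference of 1.81 at MCT 330. Rsad2 (viperin), which makes a chain-terminating nucleotide, and Cmpk2, the kinase that supplies it and lies beside it in the genome, shared a layout. Rsad2 stood at 0.30 and -0.80 in the controls, -0.02 and -0.54 at MCT 270 and 0.89 at MCT 330. Cmpk2 stood at -1.23 and -2.31, -1.67 and -1.73, and -0.89 in the same order. On these probes MCT 330 was the highest sample of both genes while the MCT 270 samples fell between the controls, and the differences of 1.14 ± 0.52 and 0.88 ± 0.47 missed the threshold (adjusted p = 0.16 and 0.21). The dimmer Cmpk2 probe had another layout, at -4.11 and -5.51 in the controls, -3.69 and -3.80 at MCT 270 and -2.79 at MCT 330, with every treated sample above both controls. Samhd1, which breaks down deoxynucleotides, differed by 0.73 ± 0.28 (adjusted p = 0.11).

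Of the GTPases that attack intracellular pathogens, Gbp2 and Igtp were called. Gbp2, a guanylate-binding protein, stood at -0.36 and -0.92 in the controls, 0.75 and 0.66 at MCT 270 and 1.44 at MCT 330. Both doses were clear of the controls, and the difference was 2.08 ± 0.29 at MCT 330 (adjusted p = 0.012; 4.22-fold) and 1.35 ± 0.24 at MCT 270 (adjusted p = 0.11). Igtp (Irgm3), an immunity-related GTPase, stood at 1.46 and 1.43 in the controls, 1.90 and 2.07 at MCT 270 and 2.23 at MCT 330, with a difference of 0.79 ± 0.20 (adjusted p = 0.039). Gbp3 and Irgm1 differed by 0.46 and 0.16 at MCT 330 and were not called.

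In the remaining effectors only Ifi35, an interferon-induced leucine zipper protein, was called. It stood at -1.19 and -1.28 in the controls, -0.45 and -0.30 at MCT 270 and 0.05 at MCT 330, an ordered series with a difference of 1.28 ± 0.20 (adjusted p = 0.014). Xaf1, a pro-apoptotic protein, stood at -0.41 and -1.38 in the controls, -0.85 and -0.51 at MCT 270 and 0.04 at MCT 330. Its MCT 330 sample was the highest, but the controls were 0.97 apart and the difference of 0.94 ± 0.45 was not called (adjusted p = 0.17). Bst2 (tetherin), which holds budding virions at the cell surface, had its highest levels at the lower dose: 3.35 and 3.14 in the controls, 3.71 and 3.82 at MCT 270 and 3.37 at MCT 330. Its difference from control was 0.52 ± 0.17 at MCT 270 (limma adjusted p = 0.22) and 0.13 ± 0.21 at MCT 330, and it was called at neither dose. Like Ifit1, Ifit3 and Cmpk2, Bst2 was not among the members whose sample values were to be given by rule. Ifi44 stood at -1.61 and -2.27 in the controls, -2.09 in both MCT 270 samples and -1.86 at MCT 330, within the range of the controls. Sp100, a nuclear body protein, stood at -2.59 and -2.65 in the controls, -2.55 and -2.76 at MCT 270 and -2.79 at MCT 330; the MCT 330 difference of -0.17 turned positive with median scaling (0.21), quantile normalization (0.15) and normexp with quantile normalization (0.06). Trim30a, Parp14 and Rtp4 differed by 0.69, 0.43 and 0.24 at MCT 330 and were not called. The Trim30a value leaves out the spot of MCT 330 replicate 1, which read -8.18 against -0.66 and -0.61 on the other MCT 330 arrays.

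**Figure D5:**
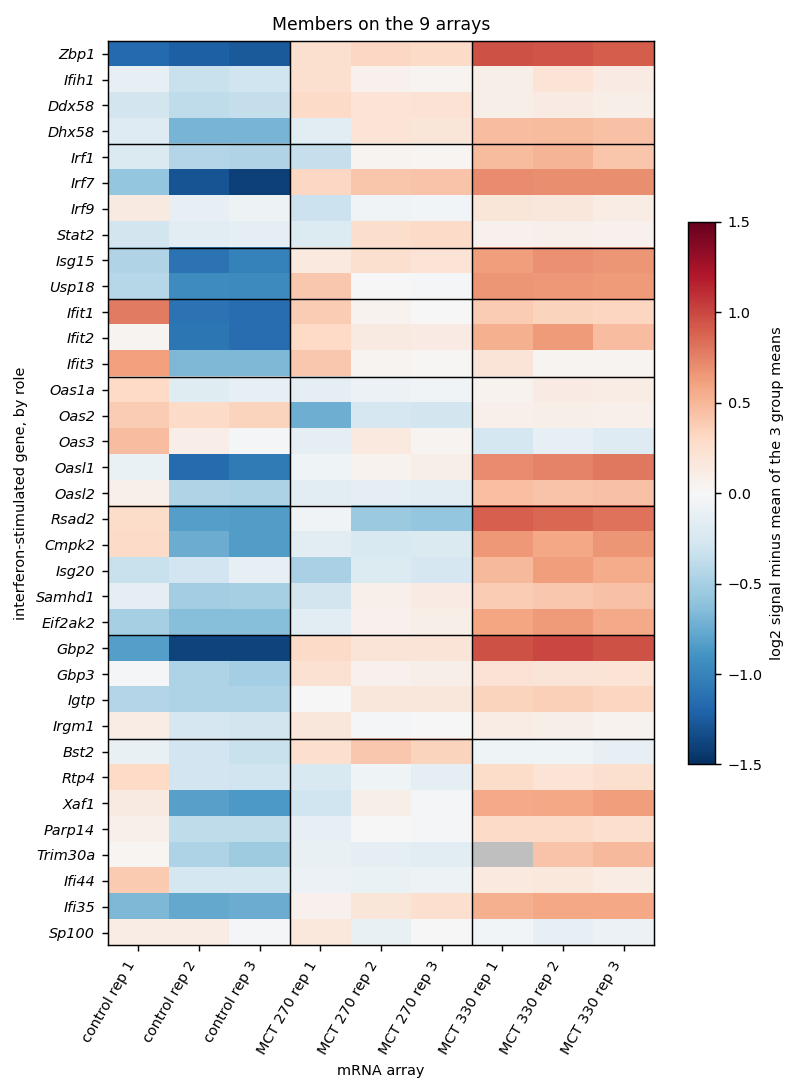
Log2 signal of the 35 measured members on each of the 9 arrays, minus the mean of the 3 group means, with members grouped by role and separated by lines; red is above and blue below the mean, and the grey cell is the Trim30a spot left out. Control replicate 1 is redder than control replicates 2 and 3 in most rows, and replicates 2 and 3 of each group look alike.

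Members with and without the motif were both among those called. Of the 16 members with a response element core in the window, 4 were called at MCT 330 and the median difference was 0.44; of the 13 without, 3 were called and the median was 0.82. The median gap between the control samples was 0.44 with the motif and 0.54 without. These are descriptions of 29 members, with no test.

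The genes that start and carry the interferon signal were read from lists of the pathway. Beside the MCT 330 calls of each list stand 9.47% of all genes called higher and 23.8% called lower. The few calls among sensing and induction genes and among negative regulators are not read as a result about those lists. Of 14 listed interferon genes 8 could be tested; 0 were called higher and 5 lower at MCT 330 against control, namely Ifna1, Ifna5, Ifna12, Ifnab and Ifnl3, by -1.70 to -1.01 log2 units. The control means of the interferon genes called lower ran from -2.51 (Ifna1) to -0.71 (Ifnl3). Counts of all genes called lower moved with the scaling, and the alternative scalings were not counted for the pathway lists. Ifna paralogs are close to identical in sequence, so which of them a probe reads is uncertain. Ifnb1, Ifng, Ifna4 and Ifne were not well above background on all arrays of any group. Ifnk was measured only at MCT 330 and passed the filter on dim probes only through that group, where it had to be high. By the bound from the arrays' dimmest detected probes it was at least 4.39-fold above MCT 270 and 3.01-fold above control. Of 11 receptor and kinase genes 3 were called higher: Ifngr1, a chain of the interferon-gamma receptor, by 1.70 ± 0.23 (adjusted p = 0.012), Ifnlr1, the specific chain of the type III receptor, by 2.45 ± 0.40 (adjusted p = 0.016; well above background on only 1 of the 3 control arrays), and its partner Il10rb by 0.99 ± 0.19 (adjusted p = 0.022). Of 19 sensing and induction genes tested, the kinases Tbk1 (0.96) and Ikbke (1.68) were called higher, and of 13 negative regulators Socs1 (1.20) and Tnfaip3 (3.72) were; the medians of these lists at MCT 330 were 0.39 and 0.49.

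Other interferon-responsive genes were read from further lists. Of 45 further interferon-induced genes tested, 9 were called higher and 0 lower at MCT 330. The member Dhx58 was not counted in this list, whose median was 0.33. Among the 9 were Cxcl10, a T cell attracting chemokine, at 3.40 ± 0.49, Mlkl, the executioner of necroptosis, at 1.92 ± 0.20, and Slfn2 at 1.70 ± 0.20. Parp11 and Epsti1, among the 9, were dim in control and are known only to be at least 1.23-fold and 1.47-fold higher. Parp11 passed the filter on dim probes only through MCT 330, where it had to be high. Of 29 genes tested among interferon-gamma responsive GTPases and antigen presentation genes, 3 were called higher (9.47% of all genes) and 4 lower (23.8% of all genes). These counts are not read as a result about the list. The immunoproteasome subunit Psmb8 (1.03), the nitric oxide synthase Nos2 (2.02) and Gbp9 (0.92) were higher, whereas Tgtp1 (-1.84), the chemokine Cxcl9 (-1.28) and Gbp4 (-1.21) had the largest differences among those lower. In each of these 6 lists 0 genes were called at MCT 270.

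Markers of other cells moved at MCT 330 beside the members. The calls of each marker list stand against 9.47% of all genes called higher and 23.8% called lower. Of 7 neutrophil markers tested 6 were called higher and their summed linear level, in units of each array's 75th percentile, went from between 8.65 and 11.6 in control and 8.20 and 9.13 at MCT 270 to 40.6. Of 7 monocyte and recruited macrophage markers 6 were called higher, with sums of 2.65 to 3.33 in control, 3.36 to 3.80 at MCT 270 and 13.3 at MCT 330; Ly6g and Ly6c2 were not analysed here. Cxcr2, Mmp8, Mmp9 and the monocyte marker Clec4e were dim in control and passed the filter only through MCT 330, where they had to be high; their bounds are at least 2.57-fold, 7.77-fold, 3.01-fold and 17.7-fold over control. Retnlg, Ccr2 and Clec4d were well above background on 1 control array each. Kupffer cell markers were called lower in 5 of 8, sinusoidal endothelial markers in 5 of 6 and stellate cell markers in 3 of 5 with 1 higher. Of the plasmacytoid dendritic cell markers, which include the member Bst2, 1 of 6 was called lower (23.8% of all genes). The remaining marker lists had median log2 differences at MCT 330 of 1.01 for B cells, 0.03 for NK cells and -0.11 for T cells. For hepatocytes the median was -0.39 and for conventional dendritic cells -0.77, against -0.25 over all genes. The summed level of the 35 members was 62.0 to 77.3 in control, 82.9 to 88.5 at MCT 270 and 100.9 at MCT 330. In bulk tissue a change in the number of cells of a type and a change in RNA per cell cannot be told apart, and the part of these markers in the members' differences was not tested.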

How the data were processed

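The deposited values are the authors' spot intensities of 9 one-colour arrays, background-subtracted and detrended per the file headers by Agilent Feature Extraction (version 11.0.1.1). Levels computed here are log2 processed intensity minus each array's 75th percentile, without control or outlier spots. In joined arrays a spot over 1 log2 unit from both others was dropped (467 at MCT 330). Probe values are means of their spots. A probe entered if well above background throughout 1 group or more, and the brightest probe stood for its gene. Names came from RefSeq accessions. A limma 3.58.1 fit (R 4.3.3) of 5 samples covered 24817 genes, with Benjamini-Hochberg adjustment over all and a threshold of 0.05; it was tested on simulated data. Members and lists were chosen with earlier results of these data known. Every sample's value is given for called members and the 5 highest and 5 lowest other differences at MCT 330. Listed genes are named up to 6 calls, otherwise the 3 largest in each direction. Alternatives covered scaling, background correction, probe filters, array grouping, replicate block, scan runs and left-out arrays. The miRNA arrays were not used, and 1 listed gene is not reported here.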

Additional observations from a re-analysis of the deposited data

How the results depend on the processing

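The members' median stayed above 0 in every alternative run for all 3 comparisons. For MCT 330 minus control it was 1.08 with median scaling and 0.37 without control replicates 2 and 3 together. Leaving out single arrays gave 0.63 to 0.90. For MCT 270 minus control single arrays left out gave 0.23 to 0.55. Without control replicates 2 and 3 together the members' median there was 0.05, against -0.04 over all genes. Leaving out control replicate 2 or 3 alone keeps the other in the same averaged sample. For MCT 330 minus MCT 270 single arrays left out gave 0.33 to 0.41, with 0.76 under median scaling. Counts of calls moved more. At MCT 270, against 0 genes and 0 members, there were 31 genes with median scaling, 502 genes and 2 members with normexp and quantile normalization, 408 and 1 with probes well above background on all 9 arrays, 566 and 3 with an intensity trend in eBayes, 4963 and 11 with scan run as a block over 6 arrays, and 1 gene in scan run 1 alone; leaving out single arrays gave 0 and 0. At MCT 330, against 8247 genes and 9 members, there were 16 members with median scaling, 3682 genes and 3 members with no filter on dim probes, and 4023 and 3 without MCT 270 replicates 2 and 3; single arrays left out gave 3650 to 8383 genes and 2 to 15 members, the lowest without MCT 270 replicate 1 and the highest member count without control replicate 1. Between the doses, against 5403 genes and 1 member, 3 members were called with median scaling, 2 with normexp, 2 with the stricter filter and 2 with the trend, 0 genes and 0 members with no filter or without MCT 270 replicates 2 and 3, and 0 to 7101 genes and 0 to 2 members without single arrays. The cause of these moves was not tested. With MCT 330 replicate 1 as a separate sample, an alternative chosen after seeing the data as were those that leave out pairs of arrays or use scan run 1 alone, 1726, 13742 and 11229 genes and 4, 15 and 7 members were called in the 3 comparisons.

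Treating the 9 arrays as separate samples called 9551, 18087 and 16137 genes and 16, 23 and 19 members. With the replicate block as well it called 9321, 17941 and 15973 genes and 15, 22 and 15 members. Same-numbered arrays of different groups did not deviate together (correlations of 0.0151 to 0.0776), so the numbers were not taken as pairing.

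Differences of single members changed sign as follows. Sp100 went to 0.0087 at MCT 270 and 0.15 at MCT 330 with quantile normalization, and at MCT 330 to 0.21 with median scaling and 0.061 with normexp. Oas2 went to 0.11 at MCT 330 with median scaling. With normexp Oasl2 was -0.030 and Parp14 -0.045 at MCT 270, and Oas3 0.018 at MCT 330. With the mean of all probes Oas1a was 0.12 and Isg20 0.11 at MCT 270, and Irf1 -0.40 at MCT 330. Rsad2 was 0.066 at MCT 270 with 9 arrays, with or without the block, and with scan run as a block. Trim30a, where the outlying spot is kept, was -1.73 at MCT 330 with 9 arrays, with or without the block, -3.08 with MCT 330 replicate 1 separate, and -3.09 to 0.96 with single arrays left out, below 0 without MCT 330 replicate 2 or 3. Without control replicates 2 and 3 together, at MCT 270 Ifit1 was -0.57, Ifit3 -0.40, Oasl2 -0.23, Cmpk2 -0.47, Irgm1 -0.032, Xaf1 -0.27, Parp14 -0.15 and Trim30a -0.16, and at MCT 330 Ifit1 was -0.43, Ifit3 -0.52, Oas1a -0.20, Irgm1 -0.024, Rtp4 -0.060 and Ifi44 -0.25. With single arrays left out, Oas1a ran from -0.19 to 0.048, Rsad2 from -0.29 to 0.52, Rtp4 from -0.18 to 0.13, Ifi44 up to 0.18 and Isg20 up to 0.040 at MCT 270, the first 4 highest without control replicate 1 and Isg20 without MCT 270 replicate 1. Without MCT 270 replicates 2 and 3 together Irf1 was -0.018, Stat2 -2e-04, Rsad2 0.23 and Sp100 0.075 at MCT 270.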
